A study of Mus musculus with 24 samples.

Results

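The 10 genes described here are markers of microglia and the 3 chains of complement C1q: P2ry12, Cx3cr1, Tmem119, Csf1r, Trem2, Gpr34, Aif1, C1qa, C1qb and C1qc. They were taken by symbol from the gene counts of each hippocampal library, and all 10 were found among the 49568 gene symbols counted. Each of the 10 was also among the 18482 genes with enough counts to be tested. The libraries came from whole hippocampus of male mice on a C57-Bl/6J background, labelled as 12 weeks old. Wild-type (WT) mice were compared with MSK1 KD mice, which are homozygous for a point mutation of the endogenous gene that removes the kinase activity of MSK1, a nuclear kinase, and which were bred as a line apart from the WT line. Standard housed (SH) mice lived in small groups in plain cages, whereas enriched (EE) mice were reared from before birth in large cages with toys and a running wheel, and none had been used in another experiment. Of the 24 libraries, 22 are used here, 6 of WT SH, 5 of WT EE, 6 of MSK1 KD SH and 5 of MSK1 KD EE.

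Microglia are the resident macrophages of the brain parenchyma. They depend on signaling through the receptor Csf1r, survey their surroundings with fine processes that are steered by purines acting on P2ry12, and receive a neuronal signal, Cx3cl1, through Cx3cr1. C1q, assembled from the products of C1qa, C1qb and C1qc, starts the classical complement cascade, is made in the brain mainly by microglia, and is known for its part in the removal of synapses. Several of the 10 genes, among them Csf1r, Cx3cr1, Aif1 and the C1q genes, are also expressed by macrophages at the borders of the brain, whereas P2ry12 and Tmem119 are more restricted to microglia.

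The 22 libraries held between 8911999 and 56752074 counts on genes, and between 14.05% and 18.6% of their counted fragments fell outside single genes. Levels are given as CPM (counts of a gene over each 1000000 counts on genes), scaled between libraries by the TMM method, and 3 counts stand for 0.0529 to 0.337 CPM. Hippocampal markers such as Prox1, a factor of dentate granule cells, were present in every library (lowest 81.5 CPM). Library 12 had the highest summed level of 4 thalamic genes (263 CPM, against 90.6 in the next library) and library 14 that of 5 striatal genes (129 CPM, against 94.4), both of them WT SH. Rps6ka5, which encodes MSK1, had medians of 25.4 and 25.8 CPM in WT SH and MSK1 KD SH. A point mutation does not alter a gene count, so that this level does not test the genotype labels. The enriched libraries 33B and 34B, which failed the quality control of the study, are left out.

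In the fit over 22 libraries, P2ry12 and Gpr34, both G protein-coupled receptors of microglia, were lower in EE than in SH hippocampus. Averaged over both genotypes, Gpr34 in EE was 0.753 times its level in SH (95% confidence interval 0.669 to 0.848) and P2ry12 was 0.773 times (0.699 to 0.856). Only Gpr34 also met the 1.3-fold change required for a call, and its call held in 8 of 22 fits with 1 library left out. P2ry12 passed the adjusted p in 11 of those 22 fits. With the level of choroid plexus genes as a covariate, neither passed (adjusted p = 0.111 for Gpr34 and 0.0729 for P2ry12). Trem2, Cx3cr1 and Csf1r had lower values in EE but did not pass the adjusted test. The 3 C1q genes and Tmem119 had fold changes close to 1, and none of the 10 genes passed the test between genotypes.

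**Figure D1:**
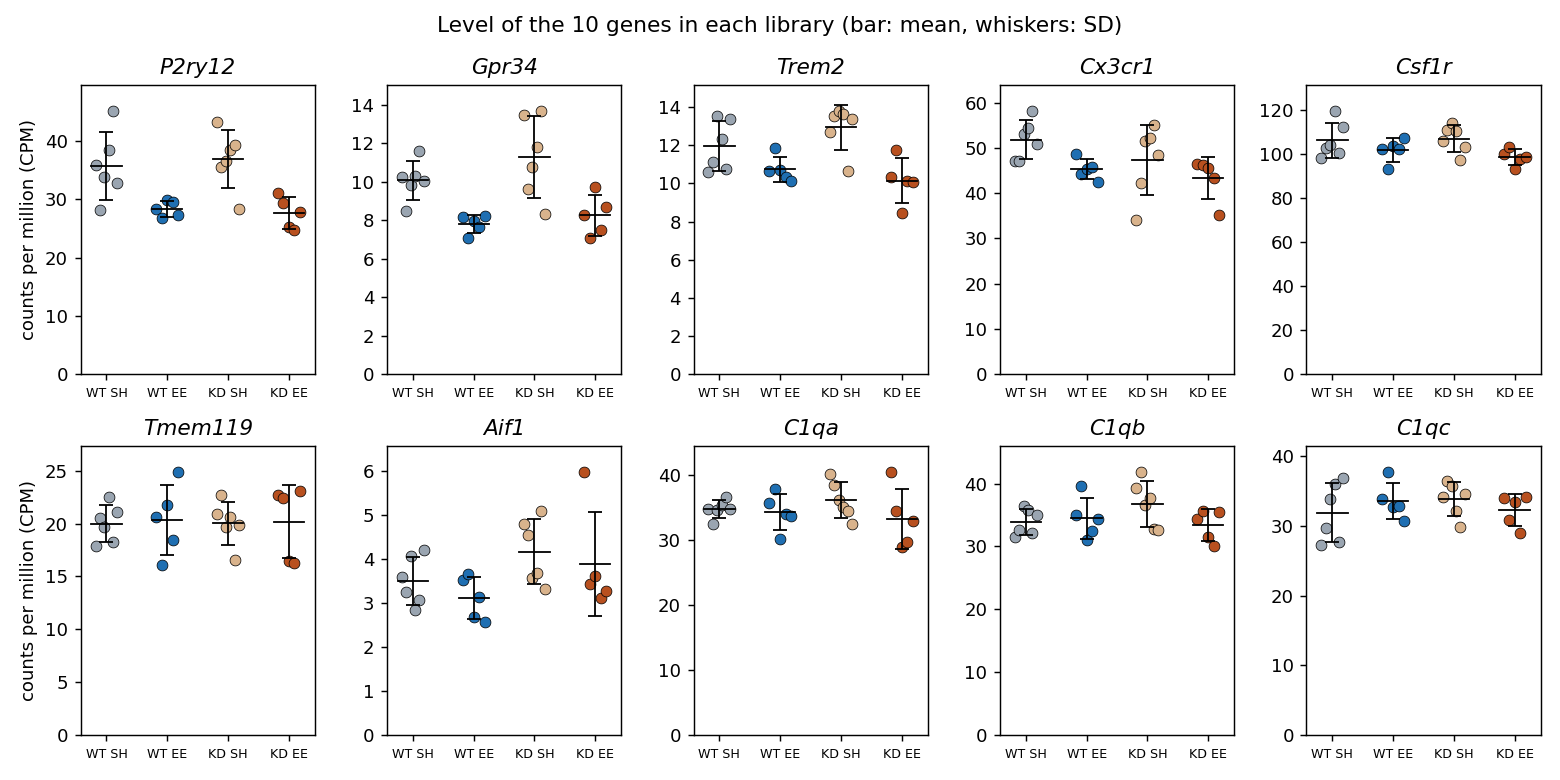
Level of each of the 10 genes (vertical axis, CPM from 0) in each library (points) of the 4 groups, with the group mean (bar) and SD (whiskers). The 5 WT EE libraries lie below all WT SH libraries for Gpr34, at 7.07 to 8.23 CPM, and the groups overlap for the 9 other genes.

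Levels of the 10 genes are compared with each other only per length of exon. On that scale (CPM per kilobase of all annotated exons of a gene together, so that long rare transcripts lower a value, mean ± SD over the 22 libraries), the C1q genes and Csf1r were at the top and Trem2 and Aif1 at the bottom. The order rests on these lengths, which were 1040 bases for C1qa, 1088 for C1qb, 1931 for C1qc and 4946 for Trem2. C1qa was at 33.4 ± 2.88 and C1qb at 31.9 ± 2.80, and C1qa was above C1qb in 16 of 22 libraries, so that these neighbours in the order overlap. Csf1r followed at 17.9 ± 1.15 and C1qc at 17.05 ± 1.53, with Csf1r higher in 17 of 22. C1qb was above Csf1r in 22 of 22 libraries without overlap of their ranges. P2ry12 was at 12.8 ± 2.29, Cx3cr1 at 10.5 ± 1.301 and Tmem119 at 8.69 ± 1.07. The ranges of each of these neighbours overlapped. Gpr34 was at 4.53 ± 0.910, below Tmem119 in each library. Aif1, which encodes the calcium-binding protein Iba1, was at 2.40 ± 0.537 and Trem2, a lipid-sensing receptor, at 2.33 ± 0.309, and Aif1 was above Trem2 in only 9 of 22 libraries. The lowest raw count of any of the 10 genes in any library was 33, for Aif1.

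On GRCm38, the 3 C1q genes lie side by side on the minus strand of chromosome 4, C1qb at chr4:136880129-136886187, C1qc at chr4:136889804-136893065 and C1qa at chr4:136895917-136898803, with 3616 and 2851 bases between them. P2ry12 (chr3:59216272-59262871, minus strand) lies inside the gene Med12l on the other strand, and Gpr34 (chrX:13632089-13640858, plus strand) lies inside Cask on the other strand. Reads were counted without regard to strand, so reads of the 2 host genes over these exons cannot be told apart from those of the members. Trem2 (chr17:48346401-48354147, plus strand) and Aif1 (chr17:35170991-35176068, minus strand) are on chromosome 17, Cx3cr1 (chr9:119901616-120069879, minus strand), whose longest annotated form spans Wdr48 and other genes, on chromosome 9 and Tmem119 (chr5:113793729-113800516, minus strand) on chromosome 5.

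The promoters of C1qb and Trem2 are shown as the 250 bases before the RefSeq start on GRCm38.p6, 5′ to 3′ on the strand of the gene. Within groups, the pair varied together by Pearson's r but did not pass by Spearman's rho (given below). Capitals mark the core motif of PU.1, the factor encoded by Spi1 that macrophages depend on, searched as GAGGAA and, for the other strand, TTCCTC. Neither window overlaps an annotated exon, but in both the bases just before the start, which hold the marked motif, are flagged as lying in a transcript.
C1qb, chr4:136886201-136886450, minus strand: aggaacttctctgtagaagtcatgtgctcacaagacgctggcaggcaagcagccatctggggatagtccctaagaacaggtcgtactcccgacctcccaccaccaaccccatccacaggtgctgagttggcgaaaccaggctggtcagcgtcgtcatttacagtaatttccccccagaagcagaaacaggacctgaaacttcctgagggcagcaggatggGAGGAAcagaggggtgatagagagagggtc
Trem2, chr17:48346151-48346400, plus strand: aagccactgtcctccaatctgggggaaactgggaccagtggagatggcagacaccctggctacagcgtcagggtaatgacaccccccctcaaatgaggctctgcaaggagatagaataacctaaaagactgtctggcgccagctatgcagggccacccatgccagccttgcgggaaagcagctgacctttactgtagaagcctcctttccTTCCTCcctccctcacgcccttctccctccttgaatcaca
Promoter windows were at hand for 6 of the 10 genes (P2ry12, Cx3cr1, Aif1, Trem2, C1qb and C1qc). The 6-base motif was found in 4 of them (C1qb, C1qc, Trem2 and Aif1), against 23.3% of all 32851 windows of this length. The windows of P2ry12 and Cx3cr1, which lacked it, lie wholly in annotated exons (250 of 250 bases), and those of C1qc and Aif1 hold 151 and 16 exon bases. The RefSeq start of P2ry12 lies 114 bases upstream of its annotated start. Its window is thus outside the annotated P2ry12 gene, and the exon bases in it are of another gene. The RefSeq start of Cx3cr1 lies inside the annotated gene. A match of these letters is a description of the sequence only.

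The first comparison asks whether rearing in an enriched environment was accompanied by other levels of the 10 genes. P2ry12, the purine receptor that marks homeostatic microglia, had a lowest, median and highest value of 28.1, 34.9 and 45.1 CPM in WT SH, whereas the 5 WT EE libraries held 26.7, 27.2, 28.3, 29.5 and 29.9 CPM. In MSK1 KD SH its values were 28.4, 37.6 and 43.3 CPM, and the 5 MSK1 KD EE libraries held 24.7, 25.2, 27.8, 29.4 and 31.2 CPM. The SH and EE groups overlapped in each genotype, through library 11 in WT SH and library 6 in MSK1 KD SH. EE over SH gave a log2 fold change of −0.34 (SE 0.100) in WT and −0.41 (SE 0.102) in MSK1 KD, with adjusted p of 0.399 and 0.453. Averaged over both genotypes it was −0.37 (SE 0.0713, adjusted p = 0.0406), which passed the adjusted p but fell short of the 1.3-fold change (0.38 on the log2 scale) that a call also required.

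Gpr34, a receptor for lysophosphatidylserine, was measured at 8.47, 10.1 and 11.6 CPM (lowest, median and highest) in WT SH and at 7.07, 7.63, 7.96, 8.17 and 8.23 CPM in the 5 WT EE libraries. These groups did not overlap, as was so for 0.698% of all genes tested in this direction. In MSK1 KD SH it was at 8.35, 11.3 and 13.7 CPM and in the 5 MSK1 KD EE libraries at 7.10, 7.47, 8.27, 8.67 and 9.75 CPM, and these groups overlapped, as did those of the 9 other members in MSK1 KD, where 0.39% of all genes lay lower in EE without overlap. The log2 fold change was −0.37 (SE 0.115, adjusted p = 0.401) in WT and −0.45 (SE 0.118, adjusted p = 0.453) in MSK1 KD. Averaged over both genotypes Gpr34 fell by 0.41 on the log2 scale (SE 0.0826, adjusted p = 0.0406) and was the only member called. By this rule 0.146% of all genes tested were called, 22 higher and 5 lower (0.0271%). The call held in 8 of 22 fits with 1 library left out (adjusted p 0.00806 to 0.0940). Without library 14, the one highest in striatal genes, Gpr34 was at −0.39 and P2ry12 at −0.33 (adjusted p = 0.0800 for both), and without library 12 at −0.41 and −0.38 (adjusted p = 0.0338 for both).

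Trem2, a receptor that signals through Tyrobp, was at 10.6, 11.7 and 13.6 CPM in WT SH and at 10.1 to 11.9 CPM in WT EE. It was at 10.6, 13.5 and 13.8 CPM in MSK1 KD SH and at 8.43 to 11.7 CPM in MSK1 KD EE, and these groups overlapped through library 5. The log2 fold change was −0.16 (SE 0.0889) in WT and −0.33 (SE 0.0907) in MSK1 KD, and −0.25 (SE 0.0635, unadjusted p = 0.000686, adjusted p = 0.0655) over both. It was not called. Cx3cr1, the receptor of the neuronal chemokine Cx3cl1, had mean levels of 51.8 ± 4.31 CPM (SD, n = 6) in WT SH and 45.3 ± 2.25 CPM (SD, n = 5) in WT EE, with 47.2 ± 7.76 and 43.3 ± 4.73 CPM in MSK1 KD SH and EE. Its log2 fold change over both genotypes was −0.16 (adjusted p = 0.250).

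Csf1r, the receptor for the survival factors Csf1 and Il34, had the smallest SD relative to its mean of the 10 over the 22 libraries, at 106 ± 8.004 and 102 ± 5.24 CPM in WT SH and WT EE and at 107 ± 6.07 and 98.4 ± 3.72 CPM in MSK1 KD SH and EE. Its log2 fold change of −0.08 (95% confidence interval −0.16 to −0.01) had an unadjusted p of 0.0363 and an adjusted p of 0.269. Tmem119, a membrane protein used as a marker of microglia, was at 19.98 ± 1.76 and 20.4 ± 3.32 CPM in WT SH and EE and at 20.04 ± 2.03 and 20.2 ± 3.49 CPM in MSK1 KD SH and EE. Its log2 fold change was 0.03 (95% confidence interval −0.13 to 0.18). The difference for Tmem119 was thus smaller than the spread between libraries in either genotype. Aif1 was at 2.56 to 5.97 CPM over all libraries, with a log2 fold change of −0.14 (95% confidence interval −0.38 to 0.10), the widest interval of the 10.

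The chains of C1q were summed in each library. The sum was 93.5, 101 and 107 CPM (lowest, median and highest) in WT SH, and 94.0 to 115 CPM in WT EE. It was 97.1, 107 and 117 CPM in MSK1 KD SH and 88.7 to 109 CPM in MSK1 KD EE, and the 4 groups overlapped. Averaged over genotypes, the log2 fold change was −0.06 for C1qa (95% confidence interval −0.17 to 0.05), −0.05 for C1qb (−0.16 to 0.05) and 0.00 for C1qc (−0.11 to 0.12). Each interval leaves out a 1.3-fold change in either direction, whereas the adjusted p, at 0.585, 0.650 and 0.982, show only that no difference was detected. The share of each gene in the summed CPM, which also follows its exon length and does not rank the genes, varied little over the 22 libraries, with an SD of 1.78 percentage points for C1qa, 1.06 for C1qb and 1.87 for C1qc.

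**Figure D2:**
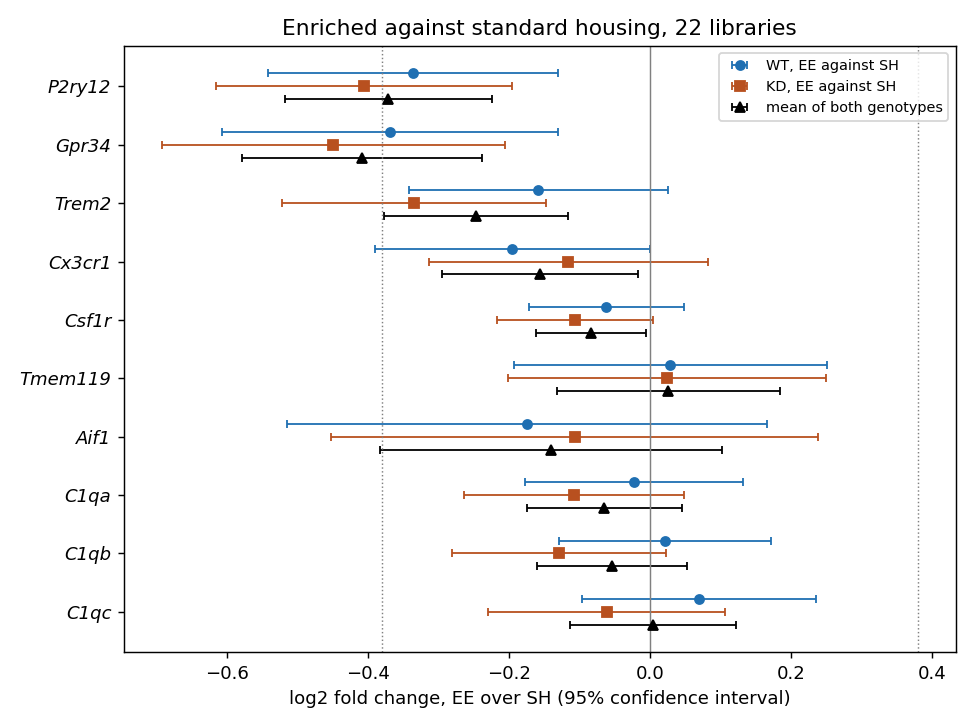
Log2 fold change of EE over SH (horizontal axis, with 95% confidence intervals) for each of the 10 genes in WT, in MSK1 KD and averaged over both genotypes, over 22 libraries. Dotted lines mark the 1.3-fold change required for a call. The intervals, which are not adjusted over genes, lie below 0 for P2ry12 and Gpr34 in WT and in MSK1 KD, and for Trem2 in MSK1 KD. None of the 10 genes passed the adjusted p within a genotype.

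Of the 10 genes, 8 had a lower and 2 a higher value in EE over both genotypes, with a median log2 fold change of −0.11 against 0.00 over all genes tested. At an unadjusted p under 0.05, 5 of the 10 were lower and 0 higher, where 7.28% of all genes tested were lower. At the adjusted p alone, 2 of the 10 were lower, against 0.124% of all genes. The 10 genes were chosen with earlier results of these data known, so these shares describe the list and do not test it. Within WT alone and within MSK1 KD alone, no member was called, and neither was any other gene (0% of genes by edgeR). At an unadjusted p under 0.05 stood 2 of the 10 in WT (P2ry12 and Gpr34) and 3 in MSK1 KD (with Trem2), against 8.65% and 9.63% of all genes. DESeq2 called 18 genes in WT and 4 in MSK1 KD, with no member among them. Whole hippocampus was sequenced, and in bulk RNA fewer cells of a type and less RNA per cell cannot be told apart.

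The study used 17 of these libraries in its tests, without 2, 9, 12, 31B and 35A, which correlated poorly with their groups. Over those 17, Gpr34 was called in the average over genotypes (log2 fold change −0.48, SE 0.0947, adjusted p = 0.00182), where 3.85% of genes were called, 20 of them lower. It was also called within MSK1 KD (−0.55, SE 0.128, adjusted p = 0.0230), where 1.74% of genes were called. P2ry12 was at −0.38 (SE 0.0875, adjusted p = 0.00869) in the average and again just short of the 1.3-fold change. In fits chosen after the data were seen, the level of choroid plexus genes (described next) was a covariate over the 17. The average was then −0.32 for Gpr34 (SE 0.267, adjusted p = 0.99992) and −0.07 for P2ry12 (SE 0.238, adjusted p = 0.99992). Gpr34 within MSK1 KD was at −0.40 (adjusted p = 0.9999), and neither call remained. Among the 17, each EE library held more choroid plexus RNA (1656 CPM or more) than each SH library (1340 CPM or less). Housing and this level thus nearly coincide there, so these fits cannot tell the 2 apart. The call within MSK1 KD was also lost in 5 of 17 fits with 1 library left out, without 1, 4, 5, 8 or 32A (−0.54 to −0.49). No member was called within WT over the 17 libraries, where 3.55% of genes were, nor in a comparison of genotypes, where at most 0.00535% were. None of the 9 other members was called in any comparison over the 17 libraries.

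The 22 libraries differed widely in transcripts of the choroid plexus, the epithelium beside the hippocampus that makes cerebrospinal fluid. The summed level of 12 of its genes, led by Ttr, ran from 240 to 2789 CPM in WT SH, from 230 to 8017 CPM in WT EE, from 224 to 4381 CPM in MSK1 KD SH and from 459 to 8310 CPM in MSK1 KD EE. All 12 had higher values in EE over both genotypes (log2 fold changes of 1.66 for Kl to 2.60 for Tmem72), and none passed the adjusted p over 22 libraries. Over the 17 libraries all 12 were called higher in WT, in MSK1 KD and in the average, where their median log2 fold change was 4.16, against 2.34 over 22. In the 3 EE libraries with the least choroid plexus RNA (31B, 35A and 9, at 230 to 459 CPM), P2ry12 was at 29.9, 27.2 and 25.2 CPM and Gpr34 at 7.96, 8.23 and 9.75 CPM. In libraries 11, 12 and 2, the SH libraries with the most (1340, 2789 and 4381 CPM), P2ry12 was at 28.1, 33.9 and 35.5 CPM and Gpr34 at 8.47, 9.84 and 9.64 CPM. For both genes these 2 sets of libraries overlapped. With the choroid plexus score as a covariate, the log2 fold change over both genotypes was −0.33 for Gpr34 (adjusted p = 0.111), −0.34 for P2ry12 (adjusted p = 0.0729) and −0.30 for Trem2 (adjusted p = 0.0679), and no member was called.

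**Figure D3:**
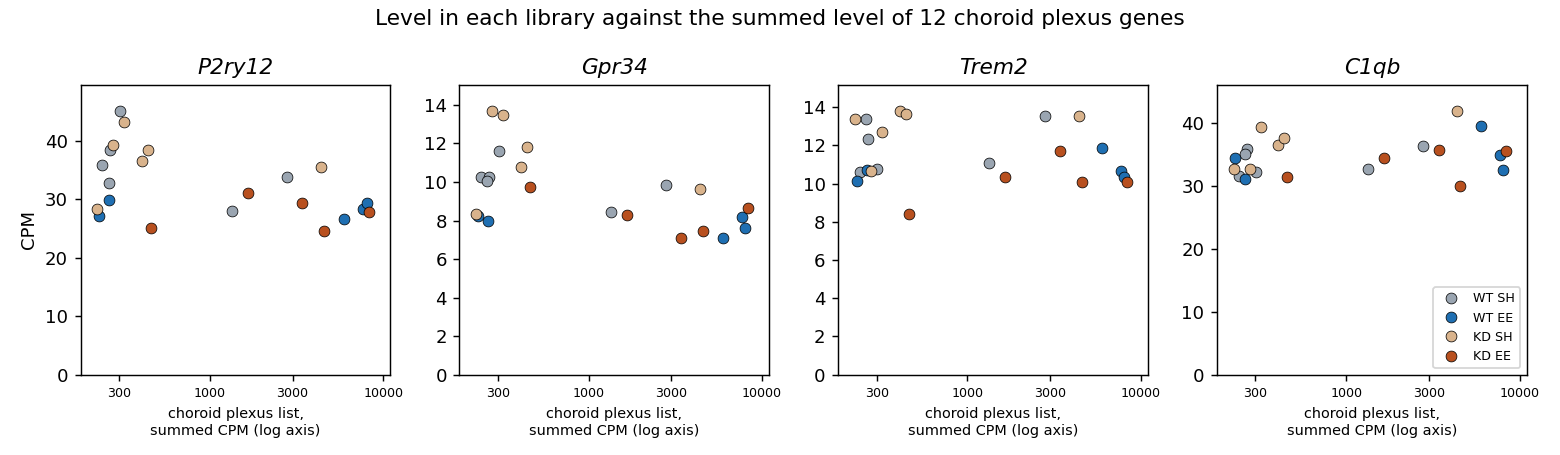
Level of P2ry12, Gpr34, Trem2 and C1qb (vertical axes, CPM from 0) in each library against the summed CPM of 12 choroid plexus genes (horizontal axes, log scale), colored by group. EE libraries 31B, 35A and 9 at the left hold 25.2 to 29.9 CPM of P2ry12 and 7.96 to 9.75 CPM of Gpr34, and SH libraries 11, 12 and 2 at 1340 CPM and above hold 28.1 to 35.5 CPM and 8.47 to 9.84 CPM.

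Macrophages at the brain borders share some of the 10 genes, so their own markers were measured. The summed level of 12 border macrophage genes was 49.7 to 54.2 CPM in WT SH, 53.3 to 69.9 CPM in WT EE, 44.8 to 57.3 CPM in MSK1 KD SH and 49.5 to 63.4 CPM in MSK1 KD EE. Of the 11 tested, 9 had higher and 2 lower values in EE, with a median log2 fold change of 0.28, and none passed the adjusted p over 22 libraries. Stab1, a scavenger receptor, was at 0.32 (adjusted p = 0.0514), Mrc1, the mannose receptor, at 0.29 (adjusted p = 0.269) and Cd163 at 0.40 (adjusted p = 0.253), and Mrc1 and Cd163 were called higher over the 17 libraries (0.46 and 0.60). Maf, a transcription factor of the list, was at 0.09. Medians over 22 libraries ran from 0.225 CPM for Ccr1, which was at 0 in 2 libraries, through 0.376 for Pf4, 0.652 for Lyve1 and 4.32 for Mrc1 to 21.7 for Maf and 23.1 for Stab1. Markers of monocytes and neutrophils were at or near 0: Ccr2 had a median of 0.176 CPM (log2 fold change 1.32, adjusted p = 0.0826, and 1.56 and called over the 17 libraries), Ly6c2 was at 0 in 7 libraries and S100a8 at 0 in 4. Their part in the levels of the 10 genes was not tested. Over the 17 libraries, where Mrc1, Cd163 and Ccr2 were called, 3.85% of genes were called. The part of choroid plexus RNA in these calls was not tested.

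Among 28 other microglial genes, 24 had lower values in EE over both genotypes and 4 higher (median log2 fold change −0.12), 3 passed the adjusted p and none was called. These 3 fell: P2ry13, a purine receptor gene that lies 5389 bases from P2ry12, by 0.34 on the log2 scale (adjusted p = 0.0410), Itgam, the integrin chain of complement receptor 3, by 0.27 (adjusted p = 0.0456) and Laptm5, a lysosomal membrane protein, by 0.23 (adjusted p = 0.0456). Like P2ry12, P2ry13 lies inside Med12l on the other strand, so reads of Med12l over its exons cannot be told apart from its own. Among the most abundant of the list per length, the log2 fold change was −0.20 for Ctss, a lysosomal protease (adjusted p = 0.179), and −0.11 for Tyrobp, the signaling partner of Trem2. Spi1, which encodes PU.1, was at −0.06 (95% confidence interval −0.30 to 0.19).

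Of 16 ligands and signaling partners of the members, 15 were tested, 6 higher and 9 lower in EE, and none passed the adjusted p. Csf1, a ligand of Csf1r, was at −0.13 (adjusted p = 0.221) and its other ligand Il34 at 0.04. Cx3cl1, the ligand of Cx3cr1, was at 0.05, with medians of 620, 632, 589 and 629 CPM in WT SH, WT EE, MSK1 KD SH and MSK1 KD EE. Apoe, a lipoprotein bound by Trem2, was at −0.09, Sirpa, the receptor for Cd47, at −0.05 and Plcg2, a phospholipase downstream of Trem2, at −0.17 (adjusted p = 0.169).

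Of 22 other complement genes, 21 were tested, 13 higher and 8 lower, and only Itgam passed the adjusted p over 22 libraries. C4b, which is cleaved downstream of C1q, was at −0.08, C3 at −0.24 (unadjusted p = 0.204), C1qbp at −0.08 and the complement inhibitor Susd4 at −0.06. Among those called higher in EE over the 17 libraries were Cd59a (log2 fold change 1.39), Serping1 (0.64) and Cd55 (0.48), each of which restrains complement. Over 22 libraries these 3 were at 0.84, 0.34 and 0.36 with none called, and the part of choroid plexus RNA, whose summed levels are given above, was not tested for them.

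Genes of a list for activated microglia ranged from a median of 514 CPM for the lysosomal protease Ctsb to values at or near 0. Ctsb stood above Csf1r (mean 103 CPM), and bulk RNA does not show which cells held the transcripts of this list. Of the 17 genes, 13 were tested, 9 higher and 4 lower in EE, with none passing the adjusted p. Gpnmb was at 0.32 (adjusted p = 0.0762), Ctsd, another such protease, at 0.25 (adjusted p = 0.130), Ctsz at 0.11, Ctsb at 0.04 and Lgals3 at 0.62 (adjusted p = 0.218). Ctsd and Lgals3 were called higher over the 17 libraries (0.43 and 0.98), where 3.85% of genes were called. Each EE library among the 17 held more choroid plexus RNA than each SH library, and its part in these calls was not tested. Clec7a, a defining marker, had a median of 0.346 CPM and Itgax and Cst7 were at 0 in 1 library each.

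Lists of other cell types are given for comparison, none with a call over 22 libraries. Median log2 fold changes were −0.07 for 8 astrocyte genes, −0.15 for 8 oligodendrocyte genes, all 8 of them lower, −0.06 for 8 neuronal genes, 0.04 for 8 endothelial genes, 0.07 for 6 hippocampal genes, 0.23 for the 6 monocyte, neutrophil and blood genes tested and 2.34 for the choroid plexus genes.

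**Figure D4:**
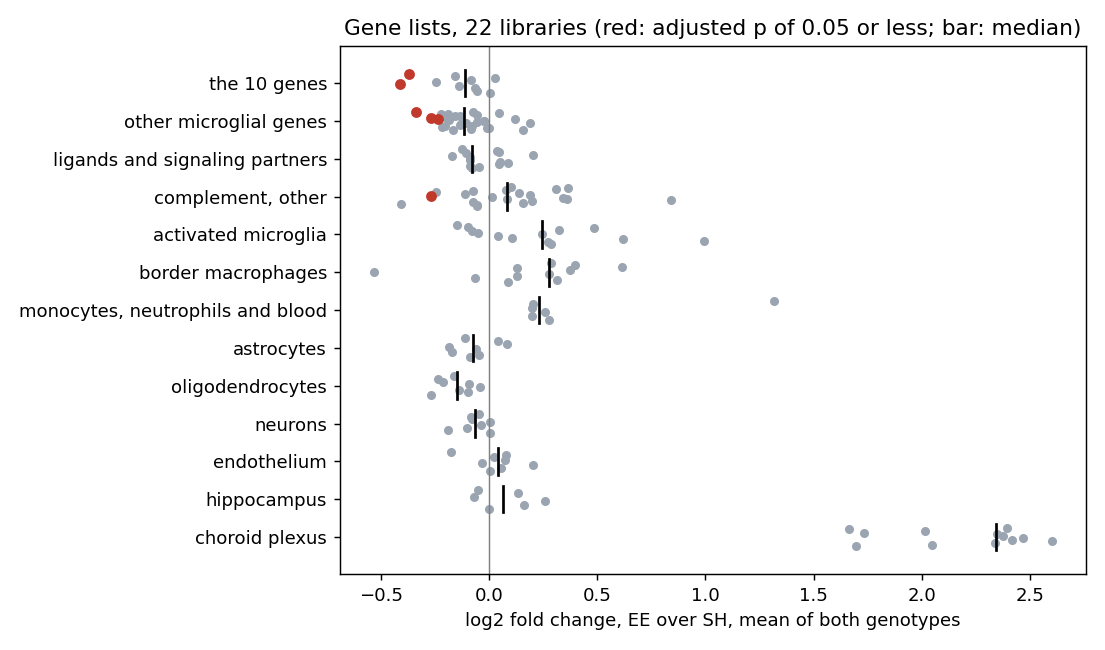
Log2 fold change of EE over SH averaged over both genotypes (horizontal axis) for each tested gene (points) of the lists, with the median of each list (bar). Red points passed an adjusted p of 0.05 over all 18482 genes: P2ry12 and Gpr34 among the 10 genes, and P2ry13, Itgam and Laptm5 among the other microglial genes (Itgam stands in the complement list too).

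The second comparison asks whether the 10 genes depended on the kinase activity of MSK1. In WT SH against MSK1 KD SH, and in WT EE against MSK1 KD EE, none of the 10 was called and none had an unadjusted p under 0.05, where 5.76% and 2.61% of all genes had one. No gene was called in either by edgeR (0%), and DESeq2 called 2 in SH and 0 in EE, with no member among them. Averaged over both housings, Aif1 alone had an unadjusted p under 0.05, where 6.06% of all genes had one. It was at 3.497 ± 0.548 CPM (SD, n = 6) in WT SH and 4.16 ± 0.738 in MSK1 KD SH, and at 3.11 ± 0.485 (SD, n = 5) in WT EE and 3.88 ± 1.18 in MSK1 KD EE. The WT groups overlapped with the MSK1 KD groups, and the log2 fold change of WT over MSK1 KD was −0.28 (SE 0.118, unadjusted p = 0.0274, adjusted p = 0.803). For the 9 others, log2 fold changes lay between −0.11 (Gpr34) and 0.10 (Cx3cr1).

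The test of whether the effect of housing differed between genotypes found no such difference for any of the 10 (adjusted p = 0.99996 each, and no gene called, 0%), and none had an unadjusted p under 0.05, where 2.04% of all genes had one. The lowest unadjusted p was 0.160, for C1qb, with a difference of 0.15 (95% confidence interval −0.06 to 0.36) between the log2 fold change in WT and that in MSK1 KD. For P2ry12 this difference was 0.07 (−0.22 to 0.36), for Gpr34 0.08 (−0.26 to 0.42) and for Trem2 0.18 (−0.08 to 0.44). For Gpr34, Trem2 and C1qb the interval reaches past the size of the effect of housing itself, and for P2ry12 it reaches close to it.

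Within groups, the 10 genes did not vary as 1 block. Correlations were computed between log2 CPM values over the 22 libraries after removal of the group means, for 45 pairs, with p from 100000 permutations within groups adjusted over the pairs. The libraries share depth and composition, so these are not correlations within cells. Of the 45 pairs, 6 passed by Pearson's r and 3 of those also by Spearman's rho. Tmem119 varied with Csf1r (r = 0.73, rho = 0.69, p = 1e-05, the smallest that these permutations can give, adjusted p = 0.000450 and 0.0117, r = 0.73 without the 2 libraries farthest from the median). C1qb varied with C1qa (r = 0.68, rho = 0.69, adjusted permutation p = 0.0207 and 0.0399, r = 0.77 without 2 libraries) and with C1qc (r = 0.63, rho = 0.63, adjusted permutation p = 0.0207 and 0.0399, r = 0.56 without 2 libraries). C1qa and C1qc, the outer and the middle gene of the cluster, had r = 0.29 and rho = 0.32, with adjusted permutation p of 0.446 and 0.457.

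The other 3 pairs passed by r alone. P2ry12 and Gpr34 had r = 0.66 and rho = 0.54 (adjusted permutation p = 0.0244 and 0.134), and r was 0.48 without 2 libraries. Trem2 and C1qb, whose promoters are shown above, had r = 0.62 and rho = 0.59 (adjusted permutation p = 0.0244 and 0.0659), with r = 0.54 without 2 libraries. P2ry12 and C1qa had r = 0.55 and rho = 0.49 (adjusted permutation p = 0.0244 and 0.157), with r = 0.49 without 2 libraries. Trem2 and Gpr34, both lower in value in EE, ran against each other within groups, at r = −0.55 and rho = −0.54 (adjusted permutation p = 0.0786 and 0.106), which did not pass, and at r = −0.34 without 2 libraries.

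**Figure D5:**
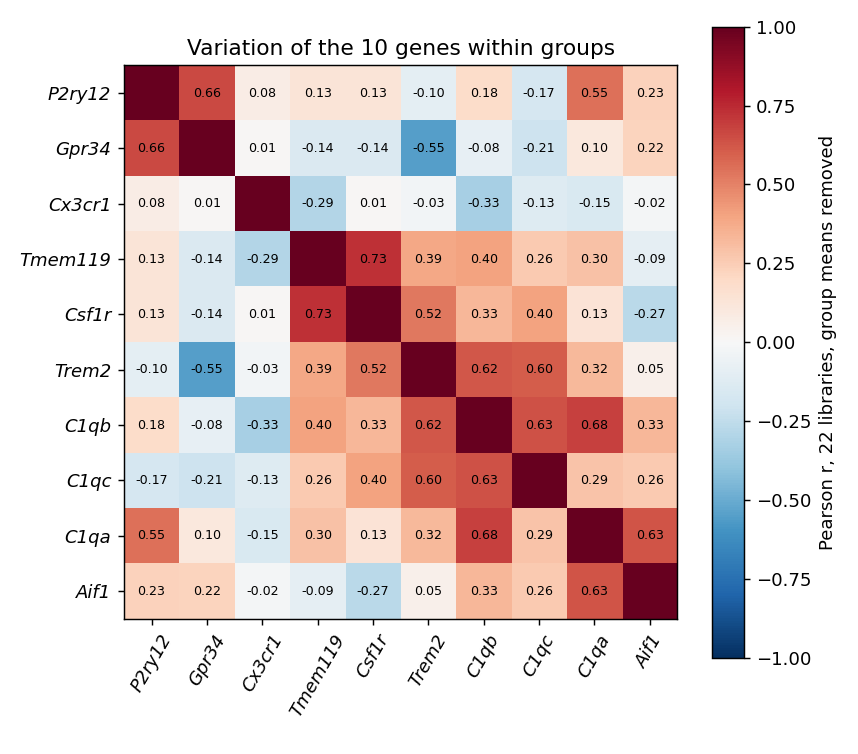
Pearson's r between each pair of the 10 genes over the 22 libraries after removal of group means (color and number). C1qb is positive with C1qa (0.68), C1qc (0.63) and Trem2 (0.62), Tmem119 with Csf1r (0.73), and P2ry12 with Gpr34 (0.66), whereas Cx3cr1 is near or below 0 with most.

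The genes most like the 10 as a whole, by r with their mean standardized value over the 22 libraries and with group means removed, were Rpl7 (r = 0.75), Ostc, Eif3m, Tcerg1l, Rpl27a, Ndufb4, Rdh14, Rps27a, Rpl36a and Dhrs1 (r = 0.74). The highest of the 28 other microglial genes was Ly86, at rank 132 (r = 0.62), and their median was r = 0.34. The genes most like the mean of the 3 C1q genes were Dhrs1 (r = 0.89), Rps23, Cst3, Aldoc, Rplp0, Rpsa, Ndufs5, Rpl12, Psmb10 and Mlc1 (r = 0.81), and among the other microglial genes Tyrobp was highest, at rank 48 (r = 0.77). Neither set of 10 held a gene of the microglial list.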

How the data were processed

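PolyA RNA of hippocampus was sequenced in paired reads. The authors removed adapters with Skewer, mapped the reads on GRCm38 using STAR 2.5, and tallied those with a unique position per gene in HTSeq, ignoring strand. The raw counts so made were deposited per library and are not normalized. A further deposited table, with 17 columns of values scaled by size factors, was not used.

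The members and gene lists were chosen with earlier results of these data known. Groups came from the sample labels, which do not say that libraries are separate animals, so p-values measure the spread between these libraries, which may be technical. No pair of libraries was identical (60 pairs within groups compared). Libraries 33B and 34B were left out. Genes were filtered with filterByExpr by group, scaled by TMM and fitted with the quasi-likelihood test of edgeR 4.0.16 (R 4.3.3), with 4 group means in 1 fit and Benjamini-Hochberg adjustment over all genes tested. A gene was called where its adjusted p did not exceed 0.05 and its log2 fold change reached 0.38 (1.3-fold) in either direction. CPM were scaled by TMM factors over all genes and may differ slightly from levels inside the fit. Exon lengths and positions came from GENCODE M21 (GRCm38), promoters from RefSeq (GRCm38.p6).

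The genes named were all 10 members, the genes of each list called over 22 or 17 libraries or among its 3 most abundant per length, and the 10 genes most like the members and most like C1q. Further genes of the lists were named after their values were seen (P2ry13, Laptm5, Itgam, Spi1, Csf1, Il34, Plcg2, C3, Gpnmb, Ly86 and markers given for their level), as were the 4 thalamic and 5 striatal genes. Of the genes called over 17 libraries, those of the choroid plexus, F13a1 and the hemoglobins are given only through their lists, and some genes that the rule selects are not reported here. The choroid plexus score is the mean log2 CPM of the 12 genes. Correlations use log2 CPM with a prior count of 2. They had been planned as a description, and their permutation p were added. The fit was tested on simulated data. Alternatives were the 17 and 24 libraries, DESeq2 1.42.0, its size factors, other filters, no lettered libraries, fits of the compared groups only, the adjusted p without a fold minimum, the choroid plexus score as a covariate and each library left out. Floors and intervals cover counting error only where they rest on counts of 1 library, and the reads carry no molecular identifiers.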

Additional observations from a re-analysis of the deposited data

Results flagged for a closer look

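In 3 of 40 sets of libraries (10 genes in 4 groups), the highest or lowest library stood apart from its group by Dixon's test, which chance gives in about 1 set in 20. Cx3cr1 was at 35.2 CPM in MSK1 KD EE library 36A, below 43.3 to 46.6 CPM in the other 4. Trem2 was at 10.6 CPM in MSK1 KD SH library 5, below 12.7 to 13.8 CPM in the other 5. Aif1 was at 5.97 CPM in MSK1 KD EE library 7, above 3.12 to 3.61 CPM in the other 4.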

How the results depend on the processing

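No paired analysis was possible because no library code is shared between groups. No member was called in WT EE against WT SH, in either comparison of genotypes within a housing, in their mean or in the interaction, under any of the alternatives run. In MSK1 KD EE against MSK1 KD SH, 1 was called over the 17 libraries (Gpr34, −0.55) and 0 otherwise. For EE against SH over both genotypes, where 1 was called, the count was 2 by the adjusted p alone, 0 without lettered libraries, 0 with the choroid plexus score and 0 to 2 with 1 library left out. With 1 library left out, Gpr34 was called in 8 of 22 fits (−0.45 to −0.38, adjusted p 0.00806 to 0.0940), and the call was lost without 1, 3, 4, 5, 8, 10, 11, 13, 14, 15, 16, 17, 32A or 36A. P2ry12 was called in 6 of 22 (−0.40 to −0.33, adjusted p 0.00806 to 0.0940), without 6, 7, 8, 11, 31B or 33A. In DESeq2, which called 214 genes here against 27 in edgeR, the adjusted p were 0.000912 for P2ry12, 0.00111 for Gpr34 and 0.0144 for Trem2. Without lettered libraries, which are all enriched, P2ry12 was at −0.36 (adjusted p = 0.0796) and Gpr34 at −0.41 (adjusted p = 0.0929).

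The sign of the members near 0 changed. Tmem119 was at −0.0051 over the 17 libraries, −0.026 without lettered libraries and −0.020 to 0.061 with 1 left out. Aif1, C1qa and C1qb were at 0.059, 0.022 and 0.019 without lettered libraries, and C1qb was at 0.0067 over the 17. C1qc was at −0.011 over 24 libraries, −0.0012 without a filter on low counts, −0.032 with the choroid plexus score and −0.020 to 0.027 with 1 left out. The cause was not tested.

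The fits added after the data were seen leave out each of the 17 libraries. Gpr34 within MSK1 KD kept its call in 12 of 17 (−0.65 to −0.49, adjusted p up to 0.100) and lost it without 1, 4, 5, 8 or 32A. Over the 17 with the choroid plexus score, no member was called, with Gpr34 at −0.32 and P2ry12 at −0.07 over both genotypes.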

Other observations

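Library 33B, an enriched WT library that failed quality control, had 54.1% of its counted fragments outside single genes. Of the 10 genes, 7 were below all 5 WT EE libraries in it (Trem2 at 7.84 CPM, C1qb at 26.3 CPM), whereas P2ry12 (27.1 CPM), Gpr34 (7.77 CPM) and Cx3cr1 (44.3 CPM) lay within their range. Library 34B, an enriched MSK1 KD library with 16442 counts on genes, held 1 count each of Cx3cr1 and C1qb and 0 of the other 8 genes, which its depth cannot tell from the levels elsewhere.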
